A study of Rattus norvegicus with 6 samples.

Results

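The NF-κB subunit genes Rela, Relb, Nfkb1 and Nfkb2 and the feedback genes Nfkbia, Nfkbib, Nfkbie, Tnfaip3, Tnip1 and Birc3 were followed in TNF-α-treated rat chondrocytes with and without Nanofat lysate (NFL). The 10 genes were taken by their symbols, as a family and not by a threshold on their values, and all 10 were found among the 18420 genes of the deposited table and among the 13250 genes that passed the filter on low counts. The TNF-α group (n = 3) and the TNF-α+NFL group (n = 3) were both WT primary chondrocytes of the Sprague-Dawley strain, from male rats of 180 to 220 g, and the age was not given in the sources used here. The cells came from articular cartilage and were used at the third passage. The TNF-α group received TNF-α at 10 ng/ml and was labelled 6 h. The TNF-α+NFL group received the same TNF-α for 6 h and then NFL, the cleared freeze-thaw lysate of Nanofat, the stromal vascular cells of collagenase-digested rat fat, for another 24 h, and was labelled 30 h. Both groups were thus exposed to TNF-α, and NFL cannot be told apart from the later time of harvest. The sources used here do not state whether TNF-α stayed in the medium, and cells without TNF-α were not analysed here. Every direction below follows the deposited group labels. The study's sources are mixed on this point. Its supplementary list of changed genes, read by its own headings, runs opposite to these labels. Several of its qPCR assays of single genes, Mmp13 and Col2 among them, do not, although a sentence on its blots has Mmp13 protein raised by NFL. The question was not settled here. If the labels were exchanged, every signed difference would turn, including those of the genes called lower, with the same p-values and the same sizes on the log2 scale, but not in percent.

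NF-κB is a family of transcription factors built from pairs of Rel subunits. In resting cells the pairs are held in the cytoplasm by IκB proteins. TNF-α activates the IκB kinase, IκB is degraded, and the freed subunits enter the nucleus and switch on inflammatory genes together with genes for their own inhibitors, so that the response limits itself. In chondrocytes this pathway is known for inducing chemokines and matrix-degrading enzymes.

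Library totals were 19344893 to 19725135 estimated counts, of which each of the 10 genes held 714 to 19064. The study describes the replicates as independent biological ones, but neither it nor the labels say whether they came from separate animals or cultures, so p-values measure only the spread between these libraries. The cell type was checked by level per transcript length (FPKM). The 12 chondrocyte markers were uneven and summed to 725 to 898 FPKM in the TNF-α group and 769 to 846 FPKM in the TNF-α+NFL group. Most of this sum was Prg4, a marker of joint-surface chondrocytes, at 582 ± 81.5 against 531 ± 47.0 FPKM (SD, n = 3), and the cartilage collagen gene Col11a1, at 210 to 222 FPKM in the TNF-α group and 240.1 to 265 FPKM in the TNF-α+NFL group (adjusted p = 0.052 in the edgeR test). Col2a1 was low, at 3.69 to 4.12 FPKM in the TNF-α group and 4.37 to 4.80 FPKM in the TNF-α+NFL group, without overlap (adjusted p = 0.22), and Col9a1, at 0.36 to 0.41 and 0.45 to 0.56 FPKM, did not overlap either (adjusted p = 0.49). Of the 10 tested markers, 7 lay on the higher side in the TNF-α+NFL libraries and 3 on the lower side, against 48.2% and 51.8% of all tested genes. In the edgeR test 0 passed an adjusted p of 0.05, against 0.611% of all tested genes, and 2 had an unadjusted p under 0.05, against 11.1%. Groups without overlap, as for some markers here, were found for 16.8% of all tested genes. Those on the lower side were Prg4, Comp, at 4.49 ± 0.258 against 4.26 ± 0.595 FPKM, and Hapln1, at 3.89 ± 0.363 against 3.52 ± 0.087 FPKM (SD, n = 3). Acan and Sox9 were at 2.34 to 3.04 and 2.05 to 2.55 FPKM, and Matn1 and Cnmd did not exceed 0.03 and 0.14 FPKM. The fibroblast marker Thy1 reached 1218 to 1359 FPKM. Of the other marker lists, endothelial genes including Pecam1 and Vwf summed to at most 0.19 FPKM, blood genes to at most 0.13 FPKM, and Ptprc and Adipoq stayed at or under 0.08 and 0.14 FPKM. Fabp4 alone made up most of the adipocyte sum and Pdgfrb most of that for pericytes and smooth muscle, and both sums overlapped between the groups. Within the pericyte and smooth muscle list, 1 of 5 tested genes passed, against 0.611% of all tested genes. This was Myh11, which was higher in the TNF-α+NFL libraries (7.36 ± 0.552 against 9.03 ± 0.23 FPKM, SD, n = 3, adjusted p = 0.041 in the edgeR test). Cnn1, at 4.02 ± 0.0764 against 5.63 ± 0.553 FPKM, and Cspg4, at 9.07 ± 0.914 against 7.70 ± 0.270 FPKM (SD, n = 3), did not overlap between the groups in opposite directions and did not pass (adjusted p = 0.069 and 0.22). The macrophage sum, mostly Cd14 and Cd68, did not overlap, at 54.7 to 56.7 FPKM in the TNF-α group and 48.8 to 51.0 FPKM in the TNF-α+NFL group. Cd14, at 34.7 ± 0.862 against 30.9 ± 1.42 FPKM (SD, n = 3), did not overlap (adjusted p = 0.16 in the edgeR test). Cd68, at 20.4 ± 1.28 against 18.9 ± 2.47 FPKM (SD, n = 3), overlapped (adjusted p = 0.71 in the edgeR test). Itgam of the same list stayed at or under 0.09 FPKM. Fibroblast genes summed to 2353 to 2472 FPKM and 2500 to 2544 FPKM and did not overlap either. The part of these lists in the results was not tested.

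The promoter sequences of these genes were searched for the motif of the factor that they encode or restrain. RefSeq promoters of GRCr8, from 250 bases before to 50 bases after the gene start, were matched for 8 of the 10 genes. Relb and Birc3 were not matched. The 10-letter κB consensus, searched on both strands with overlapping matches joined, was present in 6 of the 8, against 7.51% of 33469 rat promoters of the same length. Rela and Nfkbib held no match, which says only that these letters are not in this window. A match is a description of the sequence, not a measured binding site. The windows that hold the matches are given 5′ to 3′ on the strand of the gene, because they show which members carry the letters of this motif close to the gene start. Capitals mark the consensus matches, and positions are counted from 1 at the gene start, with negative positions before it.
Nfkbia: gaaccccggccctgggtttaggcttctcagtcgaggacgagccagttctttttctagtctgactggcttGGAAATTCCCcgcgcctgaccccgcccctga
Nfkb2: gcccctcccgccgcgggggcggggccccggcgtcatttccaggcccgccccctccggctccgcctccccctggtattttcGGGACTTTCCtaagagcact
Tnfaip3: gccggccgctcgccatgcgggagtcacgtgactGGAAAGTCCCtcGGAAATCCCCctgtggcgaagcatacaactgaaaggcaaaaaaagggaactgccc
Tnip1: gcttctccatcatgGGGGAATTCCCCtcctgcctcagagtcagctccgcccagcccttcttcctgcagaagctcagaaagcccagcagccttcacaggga
Nfkbie: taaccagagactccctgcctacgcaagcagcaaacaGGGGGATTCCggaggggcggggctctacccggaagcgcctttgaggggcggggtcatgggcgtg
Nfkb1: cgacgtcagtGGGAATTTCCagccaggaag

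In GRCr8 the Nfkbia window is chr6:78597073-78597172 on the minus strand, with its match at -31 to -22. The Nfkb2 window is chr1:255108274-255108373 on the plus strand, with its match at -20 to -11. The Tnfaip3 window is chr1:15543980-15544079 on the minus strand and holds matches at -67 to -58 and -55 to -46, and a further match lies at -170 to -161, outside the window. The Tnip1 window is chr10:39584962-39585061 on the minus strand, where 3 overlapping matches run from -86 to -75. The Nfkbie window is chr9:22947973-22948072 on the minus strand, with its match at -164 to -155. The Nfkb1 window is chr2:226805440-226805469 on the minus strand, with its match at 4 to 13, just after the gene start. Among the other lists of the pathway described below, the consensus was present in 11 of the 28 target genes that were matched, in 4 of 6 other Rel and IκB-like genes, in 2 of 8 kinase genes, in 2 of 14 receptor and adaptor genes and in 0 of 14 ubiquitin-editing genes.

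Between the labelled groups, 0 of the 10 genes passed an adjusted p of 0.05 by edgeR's quasi-likelihood test (Benjamini-Hochberg adjustment, used throughout unless another test is named), against 0.611% of all tested genes. None had an unadjusted p under 0.05 either, against 11.1% of all tested genes, and the count of members called was also 0 with the DESeq2 Wald test and with limma-voom. The differences were small in both directions, with 4 genes on the higher side and 6 on the lower side in the TNF-α+NFL libraries, against 48.2% and 51.8% of all tested genes. The median over the 10 was -0.025 on the log2 scale and -0.0035 over all tested genes. This median depended on single libraries. It was -0.0030 and -0.038 when TNF-α replicates 1 and 3 were left out in turn, and -0.0018 and -0.048 when TNF-α+NFL replicates 1 and 2 were. The 95% intervals of all 10 genes held 0, and together they reached from -14.0% to 11.3%. In bulk RNA, fewer cells expressing a gene and less RNA of it per cell cannot be told apart. For 2 of the 10 genes the groups did not overlap, against 16.8% of all tested genes. These were Nfkb2, with all TNF-α+NFL libraries higher, as in 8.66% of all tested genes, and Nfkbia, with all of them lower, as in 8.17%. The exact permutation p of each was 0.10 (two-sided), the smallest that 3 libraries against 3 allow.

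**Figure D1:**
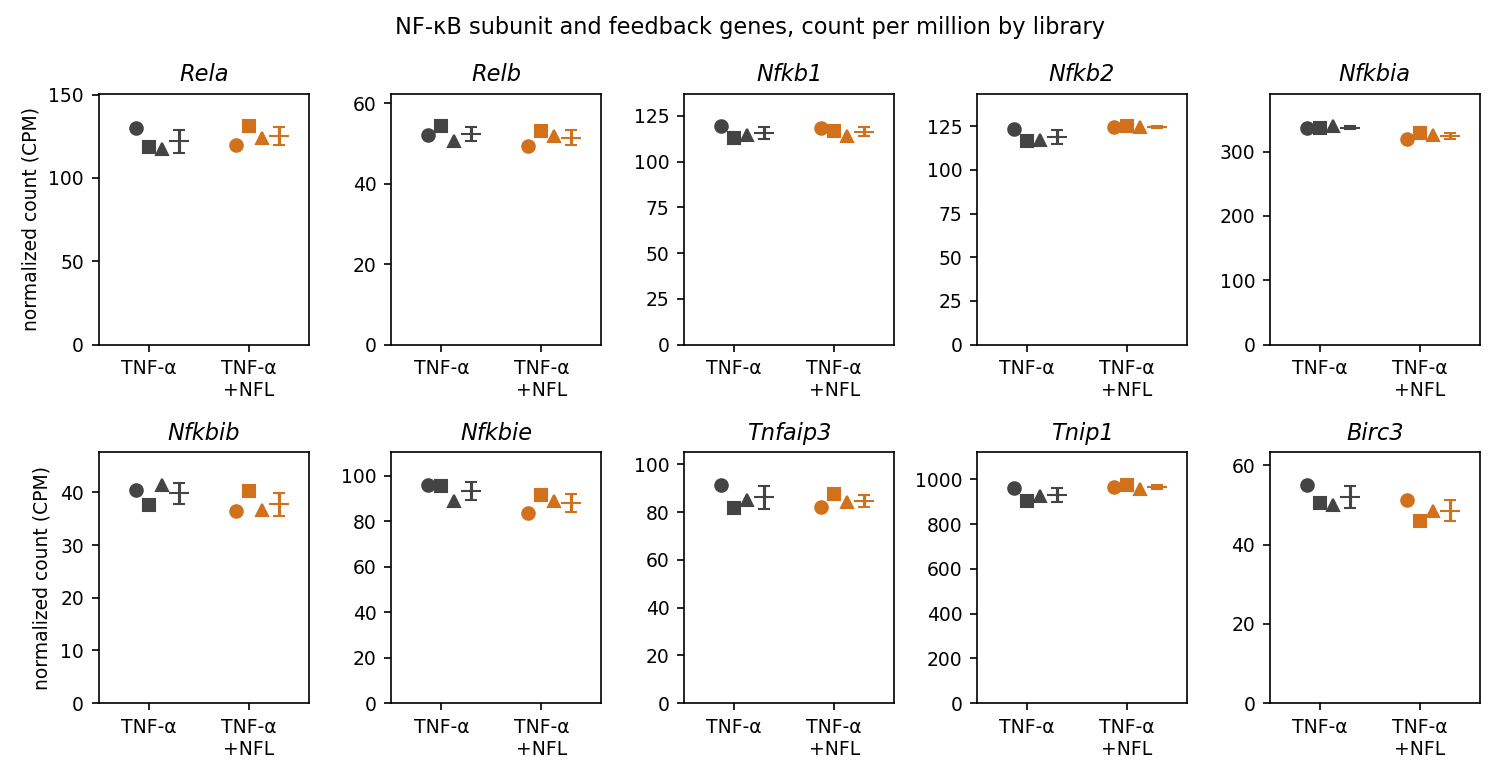
Normalized count, CPM (vertical axis, from 0, with its own scale in each panel) of the 10 genes in the 3 TNF-α and 3 TNF-α+NFL libraries. Circles, squares and triangles are replicates 1, 2 and 3, and the bar beside them is the mean ± SD (n = 3). The groups lie side by side in every panel, with a gap between the replicates of the groups only for Nfkb2 and Nfkbia.

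The subunits that carry a transactivation domain were at closely similar levels in both groups. Rela (Entrez gene 309165), the main activating subunit, had a normalized count (CPM) of 130, 119 and 117 in TNF-α replicates 1 to 3 and of 120.002, 131 and 124 in TNF-α+NFL replicates 1 to 3. Its highest values came from a different replicate number in each group and the groups overlapped. The estimated difference, TNF-α+NFL against TNF-α, was 2.59% (95% interval -4.76% to 10.5%), a log2 fold change of 0.037 ± 0.050 (SE, adjusted p = 0.86). With a single library left out the value for Rela ran from 0.0027, when this was TNF-α+NFL replicate 2, to 0.086, when it was TNF-α replicate 1.

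Relb (Entrez gene 100360982), the partner of the processed Nfkb2 product in the non-canonical pathway, had a CPM of 52.2, 54.3 and 50.7 in the TNF-α group and of 49.4, 53.1 and 51.8 in the TNF-α+NFL group. The groups overlapped over most of their range. Relb differed by -1.77% (95% interval -8.72% to 5.70%), or -0.026 ± 0.049 on the log2 scale (SE, adjusted p = 0.91). The sign turned when TNF-α replicate 2 was left out (log2 fold change 0.0037) and when TNF-α+NFL replicate 1 was left out (0.0038).

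Nfkb1 and Nfkb2 encode precursors whose ankyrin repeats hold Rel subunits back until they are processed into DNA-binding subunits. Nfkb1 (Entrez gene 81736) had a CPM of 119, 113 and 115 in the TNF-α group and of 119, 117 and 114 in the TNF-α+NFL group, the smallest difference of the 10 genes. The estimate was 0.67% (95% interval -5.27% to 6.97%), or 0.0096 ± 0.041 on the log2 scale (SE, adjusted p = 0.97), and its sign turned in 3 alternatives.

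Nfkb2 (Entrez gene 309452) had a CPM of 123, 116 and 117 in the TNF-α group and of 124, 125 and 124 in the TNF-α+NFL group. All 3 TNF-α+NFL libraries lay above all 3 TNF-α libraries, and TNF-α replicate 1 lay closest to them. This was an estimated difference of 4.83% (95% interval -1.23% to 11.3%) and a log2 fold change of 0.068 ± 0.040 (SE, adjusted p = 0.58). With TNF-α replicate 1 left out, Nfkb2 had a log2 fold change of 0.095, with an unadjusted p of 0.015 and an adjusted p of 0.12 in the edgeR test.

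The IκB genes were all on the lower side in the TNF-α+NFL libraries, none past the threshold. With the trend of fold change on transcript length removed, Nfkbia, Nfkbib and Nfkbie had log2 fold changes of -0.027, -0.044 and -0.061. Nfkbia (Entrez gene 25493), which encodes IκBα, the inhibitor that is resynthesized fastest after TNF-α, had a CPM of 336, 336 and 339 in the TNF-α group and of 319.5, 328 and 326 in the TNF-α+NFL group. The 3 TNF-α libraries were nearly identical and all lay above the TNF-α+NFL libraries. Despite this separation the estimate for Nfkbia was small, at -3.70% (95% interval -8.68% to 1.55%), or -0.054 ± 0.035 on the log2 scale (SE, adjusted p = 0.63). In TPM the groups overlapped, at 417.7 to 431.3 for TNF-α and 408.5 to 423.5 for TNF-α+NFL.

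Nfkbib (Entrez gene 81525), which encodes IκBβ, an inhibitor with slower turnover, had a CPM of 40.5, 37.7 and 41.5 in the TNF-α group and of 36.5, 40.3 and 36.6 in the TNF-α+NFL group. A single library of each group lay inside the range of the other. Nfkbib differed by -5.23% (95% interval -13.2% to 3.48%), or -0.077 ± 0.059 on the log2 scale (SE, adjusted p = 0.69). Leaving out TNF-α+NFL replicate 2 gave -0.13 and leaving out TNF-α replicate 3 gave -0.046.

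Nfkbie (Entrez gene 316241), which encodes IκBε, another NF-κB-induced inhibitor, had a CPM of 96.0, 95.3 and 88.8 in the TNF-α group and of 83.7, 91.5 and 88.7 in the TNF-α+NFL group. TNF-α+NFL replicate 2 lay above TNF-α replicate 3, so that the groups overlapped by this pair alone. The estimate was -5.79% (95% interval -12.4% to 1.31%), a log2 fold change of -0.086 ± 0.049 (SE, adjusted p = 0.56). The value was -0.050 when TNF-α+NFL replicate 1 was left out. With TNF-α replicate 3 left out, Nfkbie had a log2 fold change of -0.12, with an unadjusted p of 0.032 and an adjusted p of 0.46 in the edgeR test.

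**Figure D2:**
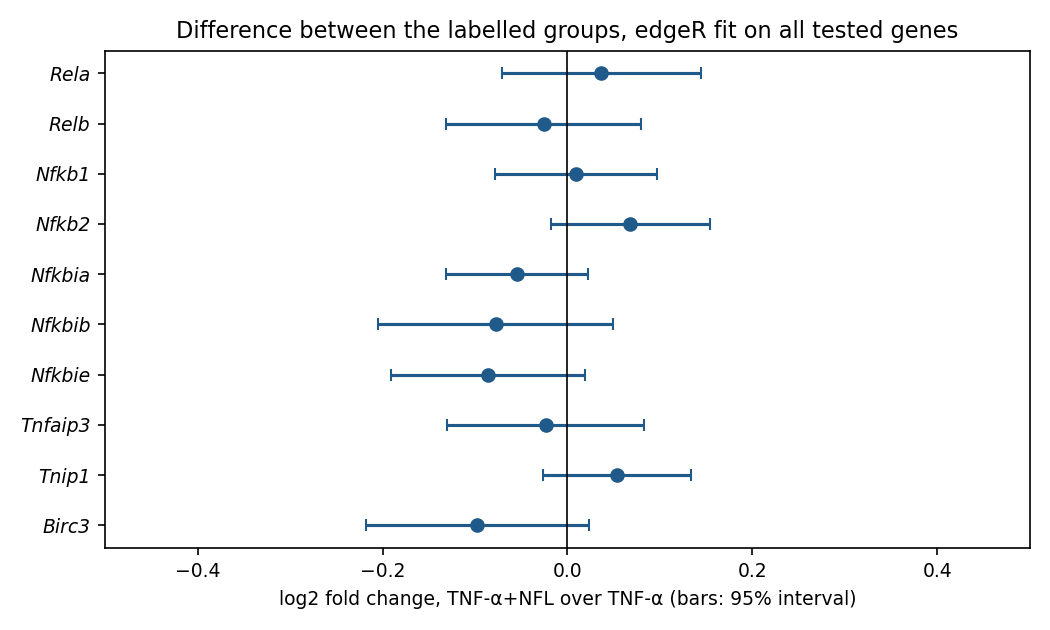
Log2 fold change of TNF-α+NFL over TNF-α (horizontal axis) for each of the 10 genes, from the edgeR fit on all tested genes, with 95% intervals as bars. Every bar crosses 0, and the values run from -0.098 for Birc3 to 0.068 for Nfkb2.

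The genes acting upstream of the IκB kinase had no common direction. Tnfaip3 (Entrez gene 683206), which encodes the ubiquitin-editing enzyme A20, a central brake on TNF receptor signaling, had a CPM of 91.4, 81.9 and 85.1 in the TNF-α group and of 82.3, 87.5 and 84.4 in the TNF-α+NFL group. The TNF-α+NFL libraries all lay within the range of the TNF-α libraries. Tnfaip3 differed by -1.63% (95% interval -8.62% to 5.90%), or -0.024 ± 0.049 on the log2 scale (SE, adjusted p = 0.92), and the log2 value turned to 0.022 without TNF-α replicate 1.

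Tnip1 (Entrez gene 363599), which encodes a ubiquitin-binding partner of A20, had a CPM of 963, 903 and 927 in the TNF-α group and of 967, 976 and 957 in the TNF-α+NFL group. TNF-α replicates 2 and 3 were lower than the other 4 libraries, and TNF-α replicate 1 lay among those of the other group. The estimate for Tnip1 was 3.79% (95% interval -1.83% to 9.73%), a log2 fold change of 0.054 ± 0.037 (SE, adjusted p = 0.66). Without TNF-α replicate 1 it was 0.079, with an adjusted p of 0.097 in the edgeR test, the lowest of any of the 10 genes in the 15 alternatives tried.

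Birc3 (Entrez gene 78971), which encodes a ubiquitin ligase of the TNF receptor complex that also restrains the kinase NIK, had a CPM of 55.1, 50.6 and 50.1 in the TNF-α group and of 51.2, 46.0 and 48.4 in the TNF-α+NFL group. TNF-α replicate 1 was the highest, and TNF-α+NFL replicate 1 lay above the other TNF-α libraries. Birc3 differed by -6.53% (95% interval -14.0% to 1.61%), or -0.098 ± 0.056 on the log2 scale (SE, adjusted p = 0.57). This was the estimate farthest from 0 among the 10 with all libraries, but not without TNF-α replicate 1, where it was -0.052. Leaving out TNF-α+NFL replicate 2 gave -0.059 for Birc3 and leaving out TNF-α+NFL replicate 1 gave -0.14. Birc3 had a fractional estimated count in all 6 libraries, so part of its reads were shared with other sequences and its value is less certain. Relb and Tnip1 had a fractional count in 2 libraries each and the other 7 genes in none.

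The libraries of a group also differed from each other across the 10 genes. TNF-α replicate 1 was above the 6-library mean of the gene for all 10 genes, with a median deviation of 0.052 on the log2 scale. TNF-α+NFL replicate 2 was above it for 8 of the 10 (median 0.035). TNF-α replicates 2 and 3 and TNF-α+NFL replicates 1 and 3 were above it for 4, 2, 4 and 3 genes. The same share over all tested genes was not computed, so these counts cannot be called particular to the 10 genes. The count for TNF-α replicate 1 was 10 with DESeq2's size factors and with TPM and 9 with FPKM. The first principal component of all tested genes, with 26.1% of the variance, also had this library at one end and TNF-α replicate 3 at the other. TNF-α replicate 1 also held the highest trace of the macrophage genes Csf1r and Lyz2, at 0.55 and 0.66 FPKM, against at most 0.09 and 0 FPKM in the other 5 libraries. The main genes of that list did not peak in this library. Cd14 was at 33.9 FPKM there, against 34.7 and 35.6 FPKM in TNF-α replicates 2 and 3. Cd68 was at 21.4 FPKM, against 21.6 FPKM in TNF-α+NFL replicate 3. The part of the Csf1r and Lyz2 traces in the values above was not tested beyond leaving the library out. Without it, 3 of the 10 genes, Nfkb2, Rela and Tnip1, had an unadjusted p under 0.05, against 20.3% of all genes tested in that fit, and none passed an adjusted p of 0.05, against 6.94%.

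**Figure D3:**
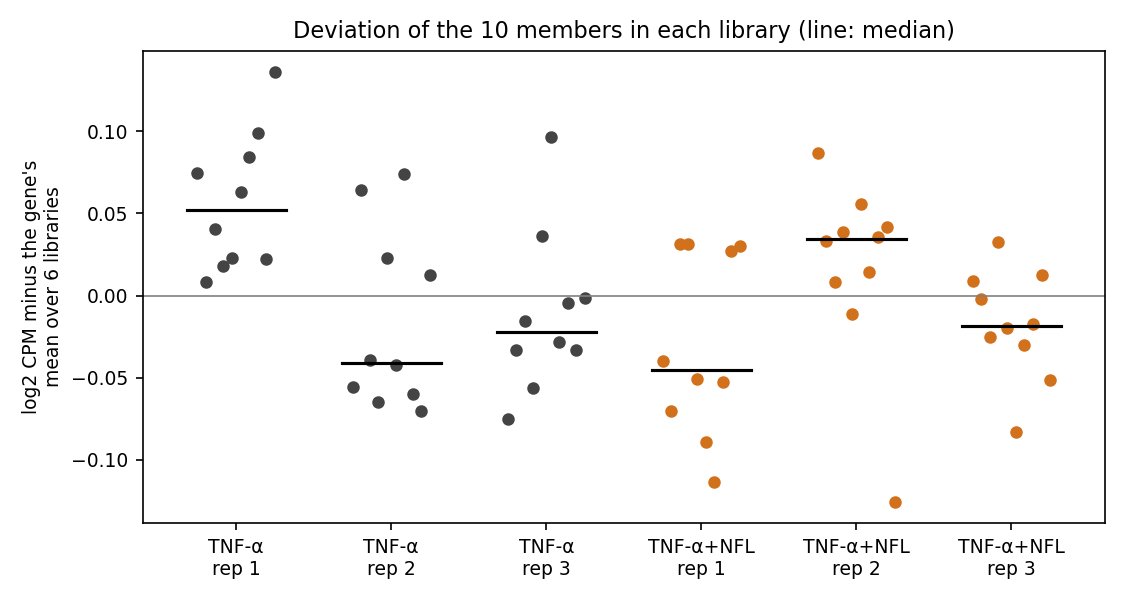
Deviation of each of the 10 genes from its own mean over the 6 libraries (vertical axis, log2 CPM), by library. Points are genes and the line is their median. All 10 points of TNF-α replicate 1 lie above 0, and the median lies above 0 in TNF-α+NFL replicate 2 as well.

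Across the 45 pairs of the 10 genes, Pearson's r of log2 CPM over the 6 libraries had a median of 0.29 and ran from -0.74 to 0.95, with 30 pairs above 0. Nfkb2 and Tnip1 were the most alike, at 0.95. These values are a description, since all pairs share the same 6 libraries and their scaling. Among 9094 other genes with a mean CPM of at least 10, the 5 genes whose log2 CPM followed that of Nfkbia most closely over the 6 libraries were Pkp2, Capn6, Pgm1, Mrpl4 and Rnasek, with r from 0.978 to 0.995. None of these 5 passed an adjusted p of 0.05, and the lowest was 0.080 for Capn6. Picked as the highest of 9094 values over only 6 libraries, these r are a description too.

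Per transcript length, the 10 genes spanned a 17.9-fold range, and the order of the group means was the same in both groups except for the lowest pair, Tnfaip3 and Birc3. Tnip1 was the highest, with a mean of 329 ± 7.75 FPKM in the TNF-α libraries and 342 ± 3.47 FPKM in the TNF-α+NFL libraries (SD, n = 3 each). Nfkbia came next, at 216 ± 2.61 and 209 ± 2.55 FPKM (SD, n = 3 each). Both lay above the other 8 genes in every library, and their means exceeded those of 98.2% and 97.2% of all tested genes.

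Nfkbie and Rela followed with means over the 6 libraries of 56.7 ± 2.74 and 50.3 ± 2.19 FPKM (SD, n = 6), and their ranges overlapped. Nfkb2, at 38.4 ± 1.24 FPKM, was separated from Rela above it and from Nfkb1 below it. Nfkb1 and Nfkbib, at 29.1 ± 0.559 and 28.0 ± 1.51 FPKM, overlapped. Relb, at 23.4 ± 0.806 FPKM, was separated from Nfkbib above and Tnfaip3 below. Tnfaip3 and Birc3 were the lowest, at 19.02 ± 0.666 and 18.8 ± 1.12 FPKM, and overlapped. The order of the 10 means was the same in TPM. The level of Nfkbia thus lay above that of each subunit gene, and those of Tnfaip3 and Birc3 below.

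**Figure D4:**
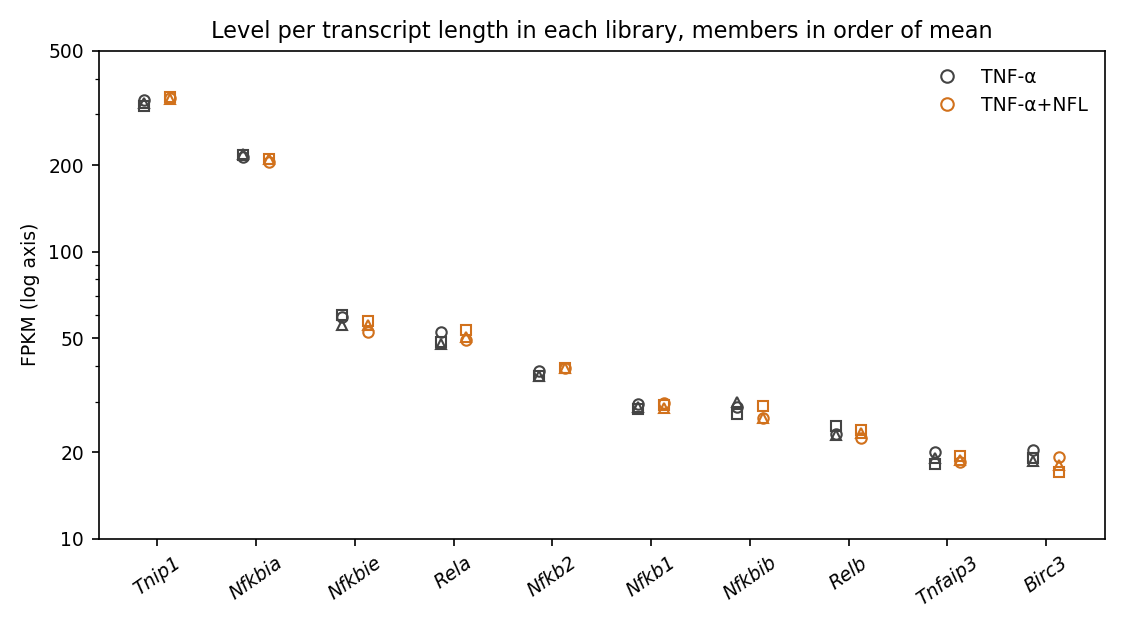
FPKM of the 10 genes in each library (vertical log axis), ordered by the mean over the 6 libraries. Circles, squares and triangles are replicates 1, 2 and 3, in grey for TNF-α and orange for TNF-α+NFL. Tnip1 and Nfkbia lie above 200, every other gene below 60, and each pair of groups is close together.

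Ratios of FPKM within a library, chosen after the values had been seen, compared inhibitors with Rela, subunits with each other and Tnip1 with Tnfaip3. Nfkbia over Rela was 4.07, 4.46 and 4.56 in the TNF-α group and 4.19, 3.94 and 4.14 in the TNF-α+NFL group, which overlapped (two-sided exact permutation p = 0.30). Nfkbie over Rela was 1.13, 1.23 and 1.16 in the TNF-α group and 1.07, 1.07 and 1.10 in the TNF-α+NFL group. Nfkbib over Rela was 0.551, 0.560 and 0.625 in the TNF-α group and 0.537, 0.543 and 0.521 in the TNF-α+NFL group. Both of these ratios were lower in all 3 TNF-α+NFL libraries, with log2 differences of -0.12 for each. Nfkb2 over Nfkb1 was 1.30, 1.29 and 1.28 in the TNF-α group and 1.32, 1.34 and 1.37 in the TNF-α+NFL group, higher in all 3, and Tnip1 over Tnfaip3, at 17.2 ± 0.443 against 18.1 ± 0.409 (SD, n = 3), was also higher with no overlap. Nfkb1 over Rela and Nfkb2 over Relb overlapped. The exact permutation p of the 4 ratios without overlap was 0.10, the smallest possible, and 0.175 after adjustment over the 7 ratios, so no ratio passed.

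The rest of the pathway was followed with 5 lists of 87 symbols, of which 82 genes were tested. None of the 82 was higher at an adjusted p under 0.05, where the background was 0.408% of all tested genes, and 4 were lower, where it was 0.204%. At an unadjusted p under 0.05, 3 were higher and 11 lower, against 5.66% and 5.45% of all tested genes. All 4 called genes were in the target list.

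In the list of other Rel and IκB-like genes, 0 of 7 passed at an adjusted or unadjusted p of 0.05 in the edgeR test, with a median log2 fold change of -0.10. Bcl3, a nuclear IκB-like coactivator and the highest of this list at 31.5 FPKM, had a CPM of 60.6 ± 5.36 against 60.1 ± 2.38 (SD, n = 3).

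Among the kinases that phosphorylate IκB or the Nfkb2 precursor and their adaptors, 0 of 11 passed an adjusted p of 0.05 and 1 had an unadjusted p under 0.05, with a median of 0.040. This was Tank, a scaffold of the kinases Tbk1 and Ikbke, with a CPM of 58.2 ± 2.61 and 63.2 ± 1.40 (SD, n = 3, log2 fold change 0.12, adjusted p = 0.35). The catalytic subunits of the IκB kinase, Chuk and Ikbkb, and the kinase NIK, Map3k14, were added to the named genes after their values had been seen. They had log2 fold changes of -0.011, 0.033 and 0.059.

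Of 17 tested receptors and adaptors, 0 passed an adjusted p of 0.05 and 1 had an unadjusted p under 0.05, with a median of -0.032. This was Il1r1, the receptor of IL-1, with a CPM of 105 ± 1.42 and 116 ± 5.12 (SD, n = 3, log2 fold change 0.14, adjusted p = 0.21). Without TNF-α replicate 1 its log2 fold change was 0.16 and its adjusted p 0.024. Tnfrsf12a, the receptor of TWEAK, was the highest of this list at 145 FPKM, with a log2 fold change of -0.069 (adjusted p = 0.65 from the edgeR test). Tnfrsf1a, the main TNF-α receptor, was added after its value had been seen and had a log2 fold change of -0.070 (adjusted p = 0.54).

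Of 15 tested ubiquitin-editing genes, 0 passed an adjusted p of 0.05 and 2 had an unadjusted p under 0.05, with a median of -0.0044. Both encode accessory subunits of the linear ubiquitin ligase. Sharpin had a CPM of 49.6 ± 1.89 and 45.2 ± 1.93 (log2 fold change -0.14, adjusted p = 0.33) and Rbck1 of 84.5 ± 2.93 and 78.8 ± 2.11 (SD, n = 3, log2 fold change -0.10, adjusted p = 0.42). Sharpin reached an adjusted p of 0.049 without TNF-α replicate 1. Tax1bp1, an adaptor of A20 and the highest of this list at 66.0 FPKM, had a log2 fold change of 0.033.

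In the list of NF-κB target genes, 4 of 32 tested genes were lower in the TNF-α+NFL libraries, 0 were higher, and the median was -0.068, against -0.0035 over all tested genes. With the trend of fold change on transcript length removed, the median of the list was -0.034. Of the 32, 22 lay on the lower side, against 51.8% of all tested genes. Cd83, a surface protein induced by NF-κB, had a CPM of 23.7, 25.4 and 24.5 in the TNF-α group and of 16.7, 17.6 and 18.0 in the TNF-α+NFL group (-0.49 ± 0.062 on the log2 scale, SE, adjusted p = 0.0050). Plau, the urokinase plasminogen activator, had a CPM of 101, 100.3 and 96.9 against 80.6, 80.9 and 75.2 (log2 fold change -0.33, adjusted p = 0.0056). Mmp13, the collagenase that cleaves type II collagen, had a CPM of 341, 355 and 313 against 279.7, 259 and 277 (log2 fold change -0.31, adjusted p = 0.017). Ptgs2, the inducible cyclooxygenase, had a CPM of 74.4, 67.3 and 71.9 against 57.2, 59.1 and 62.3 (log2 fold change -0.26, adjusted p = 0.039). In each of the 4 genes all TNF-α+NFL libraries lay below all TNF-α libraries. The sum of the macrophage list, mostly Cd14 and Cd68, was lower in the same libraries, as given above, with an overlap for Cd68. The part of this sum in these values was not tested. The list was chosen with results of these data known and is no independent evidence of a direction.

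**Figure D5:**
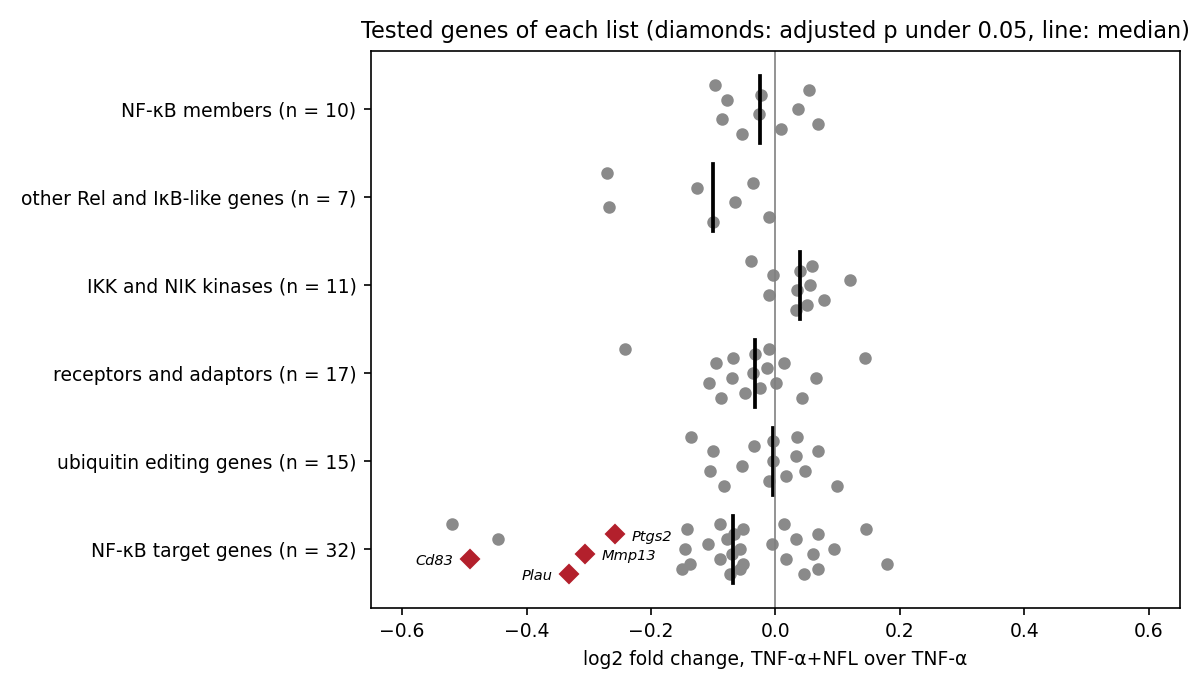
Log2 fold change of TNF-α+NFL over TNF-α (horizontal axis) for the tested genes of each list. Red diamonds are the 4 genes at an adjusted p under 0.05, grey circles the other genes, and the black line the median of the list. The 10 members lie between -0.098 and 0.068, and the 4 diamonds lie in the target list between -0.49 and -0.26.

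The number of lower genes among the 82 depended on single libraries. It was 8 without TNF-α replicate 1, where 3 were also higher, 1 without TNF-α replicate 2, 3 without TNF-α replicate 3, and 0, 2 and 2 when TNF-α+NFL replicates 1, 2 and 3 were left out in turn. These counts do not always hold the 4 genes named above. Mmp13 lost its call in 5 of the 6 fits that left out a library, TNF-α replicate 3 being the exception, and had an adjusted p of 0.057 in the fit that called 8. Ptgs2 also lost its call in 5, with TNF-α replicate 1 as the exception, Plau in 2, those lacking TNF-α replicate 2 or TNF-α+NFL replicate 1, and Cd83 in 1, that lacking TNF-α+NFL replicate 1. Their log2 fold changes stayed of like size in the 6 fits, from -0.35 to -0.26 for Mmp13, -0.29 to -0.23 for Ptgs2, -0.35 to -0.30 for Plau and -0.51 to -0.46 for Cd83. The share of all tested genes called in either direction moved with the count. It was 6.94% and 0.127% when TNF-α replicates 1 and 2 were left out in turn and 0.0373% in the fit lacking TNF-α+NFL replicate 1, so this dependence is not particular to the 82 genes. With limma-voom 2 of them were lower, Mmp13 and Ptgs2 being lost (adjusted p = 0.071 and 0.11), and with limma on log2 FPKM 0.

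Other targets with no overlap between the groups and an unadjusted p under 0.05 did not pass after adjustment. Mmp3, or stromelysin, the highest of the list at 4067 FPKM, had a log2 fold change of -0.14 (adjusted p = 0.30), Sod2, the mitochondrial superoxide dismutase, of -0.11 (adjusted p = 0.32) and Irf1, an interferon-related transcription factor, of -0.14 (adjusted p = 0.36, all from the edgeR test). Gadd45b, a stress-response gene induced by NF-κB, was on the opposite side, at 0.18 (adjusted p = 0.13). Sod2 and Gadd45b passed without TNF-α replicate 1, at adjusted p of 0.019 and 0.042, and Gadd45b also with the length trend removed, at 0.22 on the log2 scale (adjusted p = 0.0084). The chemokine gene Ccl2, the adhesion gene Icam1 and the cytokine gene Il6, added after their values had been seen, had log2 fold changes of -0.057, 0.014 and 0.061, with adjusted p from 0.78 to 0.95. Another chemokine gene, Ccl5, also added afterwards, was at -0.45 with groups that overlapped (unadjusted p = 0.025, adjusted p = 0.35 in the edgeR test).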

How the data were processed

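The 6 libraries were single-end reads of mRNA on a BGI platform. The submitters' processing notes name HISAT2 2.0.4, Bowtie2 2.2.5, RSEM 1.2.12 and the build Rnor_6.0. The authors deposited estimated counts per gene, not normalized and fractional for 27.3% to 28.0% of the genes in a library. The authors also deposited FPKM values, scaled to length and mapped fragments, and TPM values, scaled to length and a fixed sum. FPKM was used to compare levels between genes, and TPM to check their order.

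After rounding, the fit used edgeR 4.0.16 (R 4.3.3), with filterByExpr, TMM scaling and a robust two-sided quasi-likelihood test, adjusted by Benjamini-Hochberg for 13250 genes. Each standard error was the log2 fold change divided by the root of its F value, and the script was tested on simulated counts. limma 3.58.1 and DESeq2 1.42.0 were alternatives. Members and lists were chosen with earlier results of these data known. Besides members, the genes named were list genes past an adjusted p of 0.05, those with an unadjusted p under 0.05 and no overlap, the highest FPKM of each list, and key markers. Between replicates, chi-square per gene was 2.70 to 13.7, so no pair agreed within counting noise.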

Additional observations from a re-analysis of the deposited data

How the results depend on the processing

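None of the 10 NF-κB genes passed an adjusted p of 0.05 in any of the 15 alternatives, which were other filters, scaling by DESeq2's size factors, DESeq2's Wald test, limma-voom and limma on log2 FPKM with 2 pseudocounts, the replicate block, removal of the length trend, and each library left out in turn. The direction of 7 of the 10 held in all of them. It turned with the length trend removed for Nfkb1 (-0.013), and Bcl3 then turned too (0.0072). With 1 library left out, the log2 fold change ran from -0.0040 to 0.033 for Nfkb1, from -0.049 to 0.0038 for Relb, from -0.055 to 0.022 for Tnfaip3 and from -0.046 to 0.066 for Bcl3. It ran from 0.056 to 0.095 for Nfkb2, 0.0027 to 0.086 for Rela, 0.036 to 0.079 for Tnip1, -0.062 to -0.041 for Nfkbia, -0.13 to -0.046 for Nfkbib, -0.12 to -0.050 for Nfkbie and -0.14 to -0.052 for Birc3. The libraries that turned the sign were TNF-α replicate 2 or TNF-α+NFL replicate 1 for Nfkb1 and Relb, TNF-α replicate 1 for Tnfaip3, and TNF-α replicate 1 or TNF-α+NFL replicate 3 for Bcl3.

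Across all tested genes, 54 were higher and 27 lower. Without a filter on low counts the numbers were 84 and 48. They were 95 and 53 with DESeq2's Wald test, 26 and 9 with limma-voom, 1 and 1 with limma on log2(FPKM + 1) and on log2(FPKM + 0.1), and 151 and 85 with the length trend removed. With the replicate block there were 25 and 9, and 2 list genes were lower, with Mmp13 and Ptgs2 lost (adjusted p = 0.055 and 0.077). The block changed no call among the 10 members. The sources used here do not state whether same-numbered libraries share more than a number. Their deviations from the group means correlated at 0.030, -0.024 and 0.10, which cannot decide it with so few libraries. Across the fits that left out 1 library, the counts ran from 5 to 460 higher and from 0 to 470 lower genes, with the highest without TNF-α replicate 1, and from 0 to 3 higher and 0 to 8 lower among the 82 list genes. The 4 lower list genes became 2 with limma-voom and 0 with limma on log2(FPKM + 1) and log2(FPKM + 0.1), and 1, Gadd45b, was higher with the length trend removed. The median of the ubiquitin-editing list was then -0.030, that of the other Rel and IκB-like genes was -0.056 with limma on log2(FPKM + 1), and without TNF-α replicate 1 the medians of the receptor and kinase lists were -0.054 and 0.078. Cd83 had no adjusted p in the DESeq2 Wald test. The cause of these differences was not tested. For the 10 genes, whose intervals all held 0, these libraries do not separate the estimates from 0.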
